A study of Mus musculus with 6 samples.

Results

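The 42 genes described here encode the working parts of the lysosome: the soluble hydrolases and their cofactors, proteins of the lysosomal membrane, and subunits of the vacuolar proton pump. They were taken by symbol from a fixed list that leaves out the cathepsins, and all 42 were found among the 35275 genes of the deposited table. Macrophages carry many lysosomes, in which engulfed cells, matrix and lipids are broken down after a pump driven by ATP has acidified the lumen. Autophagosomes deliver their cargo to the same compartment by fusing with it. Many lysosomal genes are known to be transcribed together under TFEB and its relatives TFE3 and MITF, which bind E-box letters in their promoters.

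RNA sequencing was done on tumour-associated macrophages, with the surface profile CD11b+ F4/80+ Ly6G- Ly6C- and sorted out of mammary tumours by flow cytometry, with 3 mice labelled Atg5 KO and 3 mice labelled Atg5 WT. The labelled Atg5 KO mice carried MMTV-PyMT, loxP-flanked Atg5 alleles (Atg5flox/flox) and LysMcre, whereas the labelled Atg5 WT mice carried MMTV-PyMT and Atg5flox/flox without a Cre. MMTV-PyMT is a transgene that makes mammary epithelium form tumours, and LysMcre is a Cre placed in the lysozyme gene Lyz2, which myeloid cells as a whole express. All mice were females of the FVB/NJ background aged 65 days, and the titles give each library its own mouse number. The libraries held 18770262 to 21173301 reads, recovered from FPKM (fragments scaled by gene length and by library total), and no member had fewer than 206 reads in any library.

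Whole-gene Atg5 went against the label, and Lyz2, the gene in which LysMcre is placed, was low in the libraries labelled Atg5 KO. Atg5 stood at 14.0, 16.6 and 17.4 FPKM in the libraries labelled Atg5 KO, against 5.15, 5.11 and 5.28 FPKM in those labelled Atg5 WT. A whole-gene value does not isolate the deleted exon, so it checks nothing about the deletion. Lyz2 was 8.43, 11.8 and 16.1 FPKM in the libraries labelled Atg5 KO, against 4707, 2060 and 6571 FPKM in those labelled Atg5 WT. These Lyz2 values bear on the Cre and not on the Atg5 deletion. As no mouse labelled Atg5 WT carried a Cre, the Cre and the low Lyz2 cannot be told apart from the Atg5 label. The summed FPKM of 16 macrophage identity genes was 11572 to 14691 in the libraries labelled Atg5 KO, against 3834 to 13207 in those labelled Atg5 WT, while epithelial transcripts such as Krt8 were also present in every library.

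Letters bound by the TFEB family were searched for first, because they are what these genes are known to share at the DNA level. RefSeq promoter windows (GRCm38.p6, 250 bases before to 50 bases after the annotated start) were at hand for 37 of the 42 genes. The E-box core CACGTG was in the windows of 13 of these 37 genes (35.1%), against 11.8% of tested genes and 8.09% of all genes with a window. Its longer form TCACGTGA was in 6 of 37 (16.2%), against 2.25% of tested genes. The 10-base CLEAR palindrome, which adds a G before and a C after that form, was in 1 of 37, against 0.859% of tested genes. Of the 72 further lysosomal genes described below, 54 had a window. The core was in 10 of these 54 (18.5%), TCACGTGA in 6 (11.1%) and the palindrome in 1. Each longer motif contains the shorter ones, and each reads the same on both strands, so a match on one strand is a match on the other. The sequences below come from the 4 genes with more than 1 core in a window, written 5′ to 3′ on the gene's strand with the matches in capitals; for Cln3 and Mcoln1 only the longer of the 2 matches is shown.
Lamp1, chr8:13159085-13159160, plus strand: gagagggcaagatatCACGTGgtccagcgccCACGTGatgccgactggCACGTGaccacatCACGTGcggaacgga
Gla, chrX:134601178-134601248, minus strand: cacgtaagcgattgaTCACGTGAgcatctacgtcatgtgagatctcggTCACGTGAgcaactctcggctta
Cln3, chr7:126583340-126583369, minus strand: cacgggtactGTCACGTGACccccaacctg
Mcoln1, chr8:3500463-3500490, plus strand: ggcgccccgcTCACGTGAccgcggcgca
Lamp1 held 4 cores within the 61 bases before its RefSeq start, and windows with at least 4 cores made up 0.0244% of all windows. Gla held a pair of 8-base matches farther upstream. Cln3 carried the 10-base match in the window of 1 of its annotated starts, which lies inside the gene as the deposited table draws it. The stretch shown for Mcoln1 and the last 26 of the 76 bases shown for Lamp1 also lie inside their genes as drawn there. The same holds for the matches of Lgmn and Atp6v1a, which are not shown. Distances are thus from RefSeq starts and not from the gene ends of that table. A match is a run of letters and not a shown binding site.

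**Figure D1:**
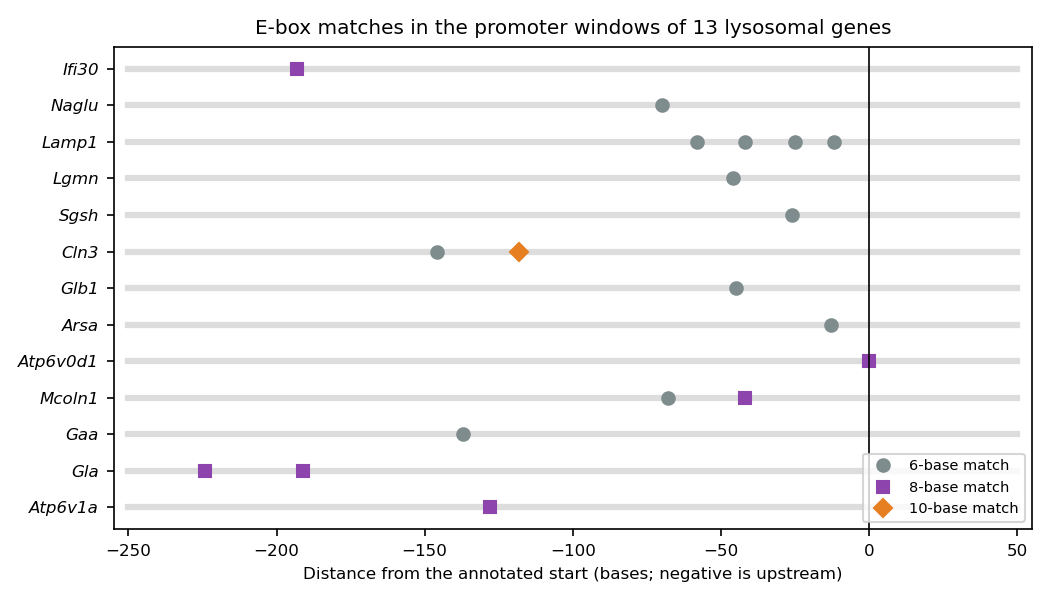
Positions of E-box matches in the promoter windows of the 13 lysosomal genes that had one, as distance in bases from the RefSeq start (horizontal axis; negative is upstream). Grey circles are the 6-base core alone, purple squares the 8-base form and the orange diamond the 10-base form; Lamp1 has 4 cores close to the start, and genes run from the highest difference between the groups at the top to the lowest at the bottom.

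Genes with a match did not have a larger median difference between the groups. The 13 genes with a core had a median log2 difference of 0.26 (KO-labelled minus WT-labelled libraries), and the 24 genes with a window and no core had a median of 0.38. Of the 6 genes with TCACGTGA, 4 had a higher mean in the libraries labelled Atg5 KO, with Ifi30 at 0.64 and Atp6v1a at -0.10 as the ends of the range. These medians are descriptions, and the difference between them was not tested. The genes with and without a core also differed in level, with a median FPKM of 36.0 and 96.0, and this was not taken into account.

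The 42 genes spanned a wide range of expression. Per unit of gene length, mean FPKM over the 6 libraries ran from 7.43 for Idua to 3177 for Psap, with a median of 63.3 against 9.15 over all tested genes. Psap, which encodes the precursor of the saposins, ranked 9 of 12332 tested genes. Lgmn, Cd63, Grn, Lamp1, Ifi30 and Hexa followed it and ranked between 70 and 194. The genes as a whole took 2.45%, 2.50% and 2.97% of reads in the libraries labelled Atg5 KO, against 1.85%, 1.09% and 2.39% in those labelled Atg5 WT. Psap alone was 42.9%, 37.4% and 43.6% of that share in the libraries labelled Atg5 KO, against 33.3%, 34.9% and 32.9% in those labelled Atg5 WT.

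**Figure D2:**
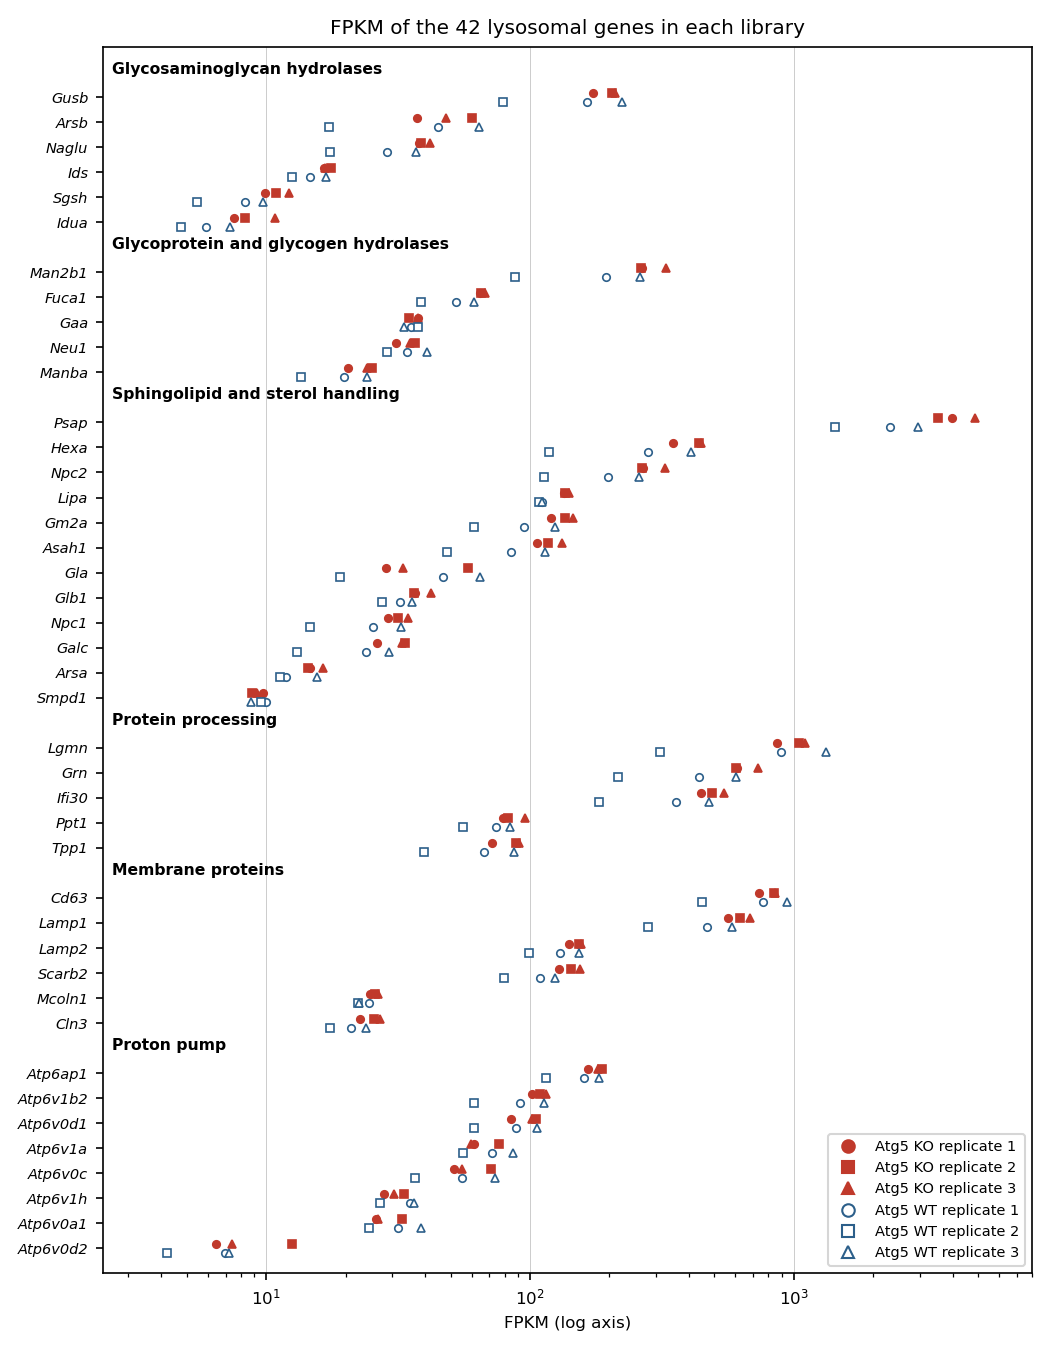
FPKM of all 42 lysosomal genes in each library (log axis), grouped by role and ordered by level within each role; filled red symbols are libraries labelled Atg5 KO and open blue symbols libraries labelled Atg5 WT, with circle, square and triangle for replicates 1, 2 and 3. The open square, Atg5 WT replicate 2, is the lowest point for 40 of the 42 genes, and Psap and Lipa are among the 11 genes whose groups do not overlap.

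None of the 42 genes passed the test over all genes, although most averaged higher in libraries labelled Atg5 KO. limma-trend on log2(FPKM + 1), with Benjamini-Hochberg adjustment over 12332 genes and a threshold of 0.05, called 0 members, and 1 gene in all (0.00811%). That gene was Lyz2, in which LysMcre is placed. The smallest adjusted p among the members was 0.492. At an unadjusted p under 0.05 there were 4 members, Psap, Lipa, Scarb2 and Idua, all higher in the libraries labelled Atg5 KO, against 4.84% of tested genes higher and 5.17% lower at that level. limma-voom on the recovered reads also called 0 members, with 3 at an unadjusted p under 0.05 (Psap, Lipa and Idua). The mean was higher for 36 members and lower for 6, with a median log2 difference of 0.35, while 37.2% of all tested genes had a higher mean and their median was -0.09. For 11 members every library labelled Atg5 KO was above every library labelled Atg5 WT, and for 0 the reverse held, against 9.2% and 9.41% of tested genes. Under median-ratio scaling 3 members were separate in this way. Of the 11 only Lipa and Psap were among them, and the third was Gaa, whose groups overlapped without that scaling. The separation given for the rest of the 11 thus depends on the scaling. The share of tested genes separate under that scaling is not given here.

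The higher means went with unequal cell content and rested on 1 library to a large extent. Atg5 WT replicate 2 was the lowest of the 6 libraries for 40 members, against 23.7% of tested genes, and the coefficient of variation was larger among the libraries labelled Atg5 WT for 40 of 42 members, against 74.9% of tested genes. Without that library the members' median was 0.13, 31 had a higher mean (46.4% of tested genes), and Psap and Lipa alone had an unadjusted p under 0.05 (8.37% of tested genes in either direction). After adjustment for a tumour-cell score, which is the mean log2(FPKM + 1) of 21 mammary epithelium and tumour cell markers, the median was 0.11 and 32 were higher (53.6% of tested genes). Without Atg5 WT replicate 3 instead, the median was 0.54 and the groups of 29 members did not overlap, against 17.5% of tested genes.

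Macrophage transcripts ran in the same direction as the members across the libraries, and tumour cell transcripts in the opposite one. The mean log2(FPKM + 1) of the 42 genes was 6.21, 6.40 and 6.42 in the libraries labelled Atg5 KO, against 6.09, 5.50 and 6.37 in those labelled Atg5 WT. The same mean over 16 macrophage identity genes was 8.34, 8.44 and 8.67 in the libraries labelled Atg5 KO, against 7.95, 6.73 and 8.46 in those labelled Atg5 WT. Both lists were lowest in Atg5 WT replicate 2 and near the level of the libraries labelled Atg5 KO in Atg5 WT replicate 3. The tumour-cell score ran the other way, at 5.46, 4.18 and 3.65 in the libraries labelled Atg5 KO, against 5.98, 6.92 and 3.95 in those labelled Atg5 WT. Of its 21 genes, 20 passed the filter and all 20 averaged lower in libraries labelled Atg5 KO, and the list's summed FPKM was 732 to 3122 there, against 804 to 8674 in the libraries labelled Atg5 WT. No gene of the list was at 0 in any library. The part of this cell content in the members' differences was not tested beyond the covariate and the left-out libraries, and fewer macrophages cannot be told apart from less lysosomal RNA per macrophage in bulk samples.

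Fibroblast, endothelial and mast cell markers also differed in level. All 13 fibroblast and pericyte genes averaged lower in libraries labelled Atg5 KO, with a summed FPKM of 70.2 to 192 there, against 259 to 1434 in those labelled Atg5 WT. The 10 endothelial genes summed to 15.2 to 30.0 FPKM in the libraries labelled Atg5 KO, against 35.5 to 95.9 FPKM in those labelled Atg5 WT, and the 7 mast cell genes to 5.90 to 18.7 FPKM, against 19.0 to 97.2 FPKM. These 3 lists did not overlap between the groups in summed FPKM. Lists for T and natural killer cells, B and plasma cells, neutrophils, dendritic cells and osteoclasts did overlap in summed FPKM. In mean log2(FPKM + 1) the osteoclast list was separate, at 2.57, 2.90 and 2.47 in the libraries labelled Atg5 KO. In those labelled Atg5 WT it was 3.01, 2.94 and 2.98, so the step was small. No gene of the fibroblast, endothelial and mast cell lists passed the limma-trend test. Of 13, 10 and 5 tested, 11, 8 and 4 were lower at an unadjusted p under 0.05 in this order, against 5.17% of all tested genes. The part of these cells in the members' values was not tested.

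Set against the macrophage genes of the same library, the lysosomal genes were not higher in the libraries labelled Atg5 KO. Their mean minus the macrophage identity mean was -2.12, -2.05 and -2.25 on the log2 scale in the libraries labelled Atg5 KO, against -1.85, -1.23 and -2.09 in those labelled Atg5 WT. Atg5 WT replicate 3 lay inside the range of the libraries labelled Atg5 KO, and the other 2 libraries labelled Atg5 WT lay above it. The value was highest, at -1.23, in Atg5 WT replicate 2, which also had the highest tumour-cell score, 6.92. What other cells added to the lysosomal genes was not tested, so this difference is not a level per macrophage. Compared gene by gene, Atg5 WT replicate 3 was below all 3 libraries labelled Atg5 KO for 13 members, inside their range for 18 and above all 3 for 11. Over all tested genes the shares below and above were 36.8% and 21.4%.

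**Figure D3:**
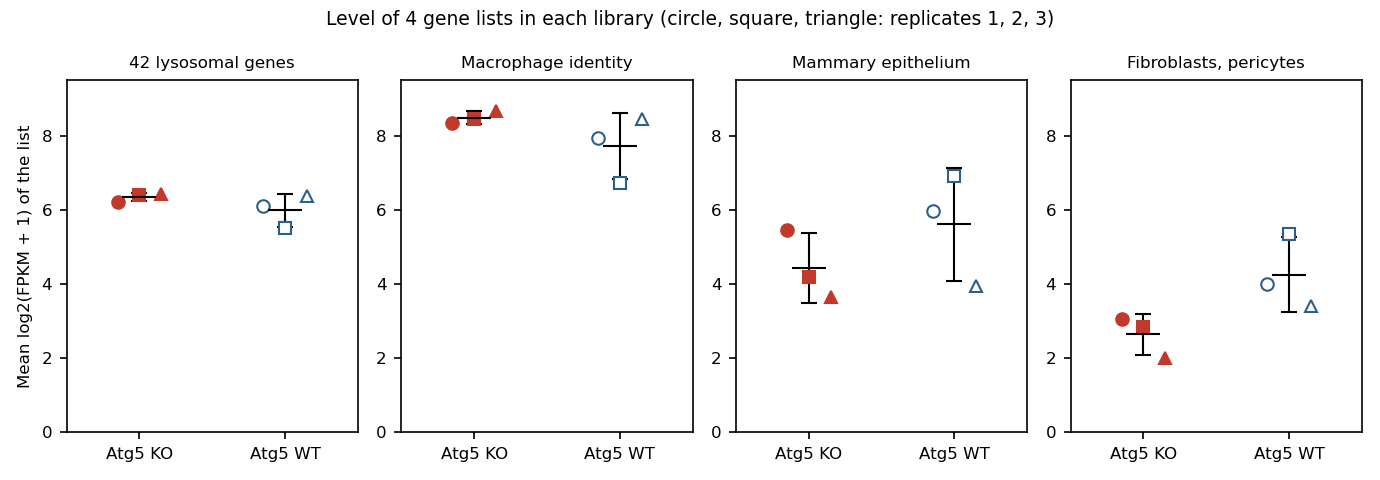
Mean log2(FPKM + 1) of the 42 lysosomal genes, the macrophage identity list, the mammary epithelial list and the fibroblast and pericyte list per library, libraries labelled Atg5 KO at the left and Atg5 WT at the right of each panel; horizontal lines and bars are the mean and SD of 3 libraries. The lysosomal and macrophage lists are both lowest, and the epithelial and fibroblast lists both highest, in Atg5 WT replicate 2 (square).

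Genes of sphingolipid and sterol handling included Psap, the member with the largest difference, and none passed the test over all genes. Of 12 members 10 had a higher mean in the libraries labelled Atg5 KO, and the median log2 difference was 0.49, and 0.23 without Atg5 WT replicate 2. Psap (ENSMUSG00000004207, chr10:60277627-60302597, mm10) had 3964, 3512 and 4869 FPKM in the libraries labelled Atg5 KO, against 2321, 1432 and 2964 FPKM in those labelled Atg5 WT. The groups did not overlap. The log2 difference was 0.93 ± 0.32 (SE; limma-trend adjusted p = 0.492), and it was 0.64 without Atg5 WT replicate 2. Psap also stood higher beside Lamp1, whose product coats the lysosomal membrane. The log2 ratio of Psap to Lamp1 FPKM was 2.71 ± 0.199 in the libraries labelled Atg5 KO and 2.34 ± 0.0246 in those labelled Atg5 WT (SD, n = 3 each). The exact two-sided permutation p was 0.1, the smallest that 3 against 3 allows. The ratio differed by 0.38 between the groups, less than Psap itself, as Lamp1 also averaged higher (log2 difference 0.55). Psap was the member with the largest difference, so this ratio is no separate support for that difference.

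Lipa, which encodes the acid lipase that hydrolyses cholesteryl esters and triglycerides, was the steadiest member. It lies at chr19:34492318-34527474 and had 134, 136 and 141 FPKM in the libraries labelled Atg5 KO, against 111, 108 and 111 FPKM in those labelled Atg5 WT. Its coefficient of variation among the libraries labelled Atg5 WT was 1.63%, the smallest of the 42, where the members' median was 27.7%. Unlike most members, Lipa hardly differed between Atg5 WT replicate 2 and the other libraries labelled Atg5 WT. The log2 difference was 0.31 ± 0.08 (SE; limma-trend adjusted p = 0.492), and it stayed between 0.29 and 0.33 when each library was left out in turn. It was 0.29 after adjustment for the tumour-cell score.

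Gm2a, which encodes the activator that presents GM2 ganglioside to beta-hexosaminidase, had 120, 136 and 146 FPKM in the libraries labelled Atg5 KO, against 94.5, 61.1 and 125 FPKM in those labelled Atg5 WT. Its groups overlapped through Atg5 WT replicate 3. Gla, which encodes alpha-galactosidase A and carries the 2 upstream 8-base matches shown above, had the lowest difference of this role at -0.03. Its FPKM was 28.3, 58.0 and 32.9 in the libraries labelled Atg5 KO, against 46.6, 19.0 and 64.8 in those labelled Atg5 WT. No direction held for Gla, as both groups covered much the same range. Without Atg5 WT replicate 2 its log2 difference was -0.53, and without Atg5 WT replicate 3 it was 0.33. Among the other members of this role, Npc2 and Npc1, which hand cholesterol out of the lysosome, had log2 differences of 0.66 and 0.45. The alpha subunit gene of beta-hexosaminidase, Hexa, was at 0.78, the ceramidase gene Asah1 at 0.59 and the galactosylceramidase gene Galc at 0.53. The beta-galactosidase gene Glb1 was at 0.26, the arylsulfatase A gene Arsa at 0.22 and the sphingomyelinase gene Smpd1 at -0.02. Npc2 and Glb1 were, beside Psap and Lipa, the genes of this role whose groups did not overlap. Glb1 shares its strand and position with Tmppe, and Npc1 its position with 3110002H16Rik, so both values are less certain.

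**Figure D4:**
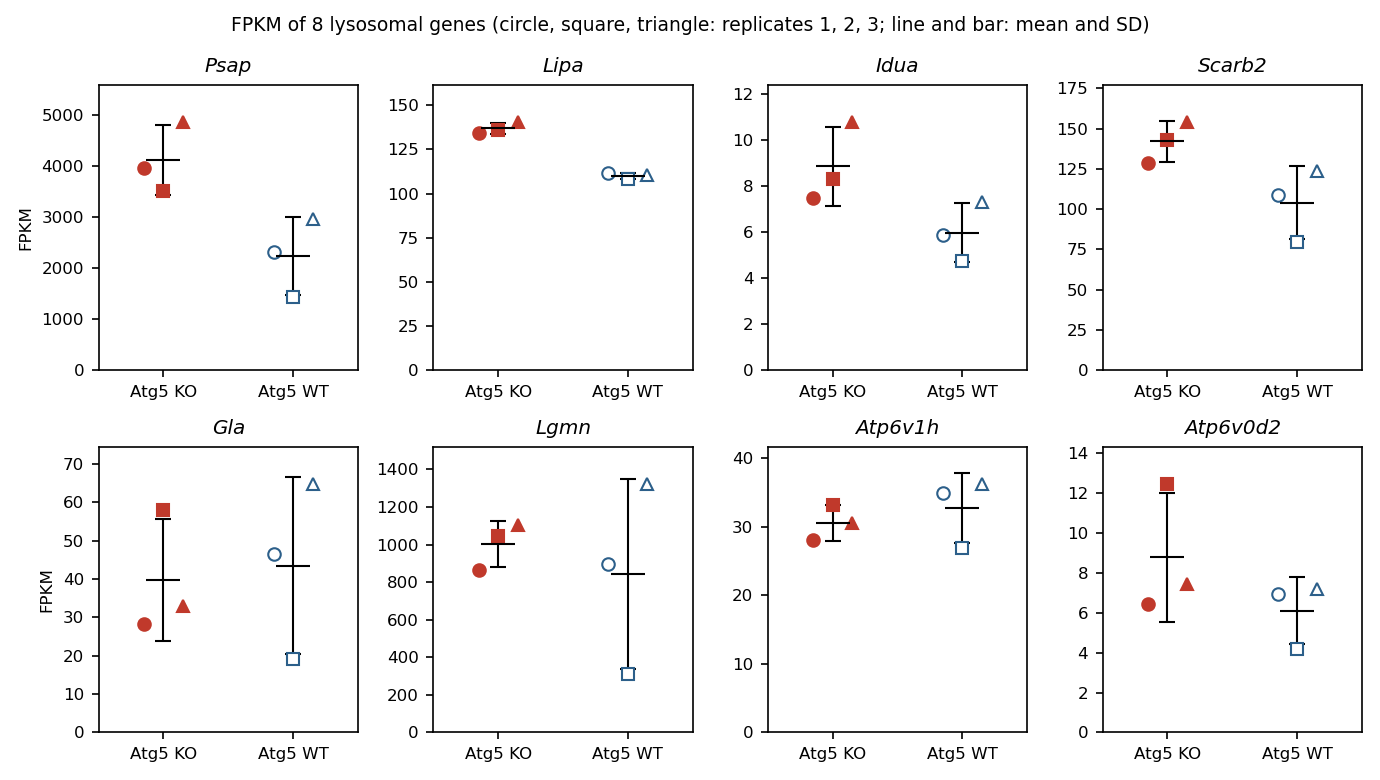
FPKM of Psap, Lipa, Idua, Scarb2, Gla, Lgmn, Atp6v1h and Atp6v0d2 in each library, on linear axes from 0, with libraries labelled Atg5 KO at the left of each panel and Atg5 WT at the right; lines and bars are the mean and SD of 3 libraries. The groups do not overlap in the 4 upper panels and overlap in the 4 lower ones.

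Hydrolases of glycosaminoglycans, the sulfated sugar chains of matrix proteoglycans, all had a higher mean in the libraries labelled Atg5 KO, and 0 of 6 passed the limma-trend test, with 1 at an unadjusted p under 0.05. Their median log2 difference was 0.46, and 0.18 without Atg5 WT replicate 2. Idua, the alpha-L-iduronidase gene at chr5:108660331-108684557, had 7.51, 8.31 and 10.8 FPKM in the libraries labelled Atg5 KO, against 5.90, 4.76 and 7.31 FPKM in those labelled Atg5 WT. The groups lay close and did not overlap, with a log2 difference of 0.50 ± 0.19 (SE; limma-trend adjusted p = 0.492). Idua shares its position with Dgkq on the other strand, and whether the counting used strand is not stated in the labels, so its value is less certain.

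The heparan sulfate enzymes Naglu and Sgsh gave a like picture. Naglu, the N-acetyl-alpha-glucosaminidase gene, had 37.8, 38.4 and 41.8 FPKM in the libraries labelled Atg5 KO, against 28.6, 17.4 and 37.0 FPKM in those labelled Atg5 WT. Sgsh, the sulfamidase gene, had 9.85, 10.9 and 12.2 FPKM in the libraries labelled Atg5 KO, against 8.32, 5.47 and 9.72 FPKM in those labelled Atg5 WT. For both genes Atg5 WT replicate 3 lay just under the lowest library labelled Atg5 KO, so the groups were separate by a small step. The beta-glucuronidase gene Gusb was the most expressed of this role, with 173, 204 and 211 FPKM in the libraries labelled Atg5 KO, against 164, 78.8 and 223 FPKM in those labelled Atg5 WT. Its groups overlapped and its log2 difference was 0.45 with an SE of 0.38. The iduronate sulfatase gene Ids had the lowest difference of the role, 0.20, with 16.5, 17.6 and 16.6 FPKM in the libraries labelled Atg5 KO, against 14.6, 12.5 and 16.9 FPKM in those labelled Atg5 WT. The log2 difference of the arylsulfatase B gene Arsb was 0.36, and -0.17 without Atg5 WT replicate 2.

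Enzymes that take apart glycoprotein sugars and glycogen were split, with a median of 0.30 over 5 members. Man2b1, the alpha-mannosidase gene, had 266, 263 and 328 FPKM in the libraries labelled Atg5 KO, against 194, 87.6 and 262 FPKM in those labelled Atg5 WT. Fuca1, the alpha-fucosidase gene, had 64.5, 65.1 and 67.5 FPKM in the libraries labelled Atg5 KO, against 52.3, 38.4 and 61.4 FPKM in those labelled Atg5 WT. In both the groups did not overlap, with log2 differences of 0.78 and 0.39, and of 0.33 and 0.21 without Atg5 WT replicate 2. For Man2b1 the step was very small, from 262.1 FPKM in Atg5 WT replicate 3 to 262.7 FPKM in Atg5 KO replicate 2. The beta-mannosidase gene Manba had 20.3, 25.2 and 24.0 FPKM in the libraries labelled Atg5 KO, against 19.7, 13.5 and 24.1 FPKM in those labelled Atg5 WT, and its groups overlapped. The sialidase gene Neu1 had 31.0, 36.6 and 35.1 FPKM in the libraries labelled Atg5 KO, against 34.2, 28.7 and 40.8 FPKM in those labelled Atg5 WT. Neu1 thus sat at about the same level in both groups, with a log2 difference of -0.00 and an SE of 0.15. The glycogen-degrading alpha-glucosidase gene Gaa differed by 0.05 and was, with Smpd1, 1 of the 2 members whose lowest library was not Atg5 WT replicate 2. None of the 5 passed the limma-trend test, and 0 had an unadjusted p under 0.05.

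Genes of protein processing included some of the most abundant members, and all 5 had a higher mean in the libraries labelled Atg5 KO, with overlapping groups throughout. Grn, which encodes progranulin, had 611, 603 and 734 FPKM in the libraries labelled Atg5 KO, against 435, 216 and 604 FPKM in those labelled Atg5 WT. Ifi30, the thiol reductase gene that helps unfold antigens for class II presentation, had 444, 490 and 545 FPKM in the libraries labelled Atg5 KO, against 357, 182 and 479 FPKM in those labelled Atg5 WT. The log2 differences were 0.75 for Grn and 0.64 for Ifi30, and 0.33 and 0.25 without Atg5 WT replicate 2. Lgmn, which encodes the asparaginyl endopeptidase legumain, had 866, 1044 and 1102 FPKM in the libraries labelled Atg5 KO, against 895, 311 and 1323 FPKM in those labelled Atg5 WT. Its highest and lowest libraries were both labelled Atg5 WT, and its log2 difference of 0.48 (SE 0.53) became -0.12 without Atg5 WT replicate 2. The palmitoyl-protein thioesterase gene Ppt1 had 78.6, 82.5 and 95.2 FPKM in the libraries labelled Atg5 KO, against 74.0, 55.6 and 83.9 FPKM in those labelled Atg5 WT. It overlaps the abundant gene Cap1 on the other strand, which makes its value less certain. The tripeptidyl peptidase gene Tpp1 differed by 0.43.

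Membrane protein genes all had a higher mean in the libraries labelled Atg5 KO, with a median log2 difference of 0.26 (0.14 without Atg5 WT replicate 2, with 5 of 6 higher), and 0 of 6 passed the limma-trend test, with 1 at an unadjusted p under 0.05. Scarb2 (chr5:92443873-92505608), which encodes LIMP-2, the receptor that carries beta-glucocerebrosidase to lysosomes, had 129, 143 and 154 FPKM in the libraries labelled Atg5 KO, against 109, 79.6 and 124 FPKM in those labelled Atg5 WT. The groups did not overlap, and the log2 difference was 0.46 ± 0.19 (SE; limma-trend adjusted p = 0.492). Mcoln1, which encodes the calcium channel TRPML1, had the smallest difference of the role, 0.15, yet its groups did not overlap either. It had 24.7, 25.9 and 26.4 FPKM in the libraries labelled Atg5 KO, against 24.5, 22.2 and 22.4 FPKM in those labelled Atg5 WT.

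Lamp1, the gene with 4 E-box cores, had 561, 627 and 681 FPKM in the libraries labelled Atg5 KO, against 469, 280 and 584 FPKM in those labelled Atg5 WT, and its log2 difference was 0.55. Lamp2, whose splice form LAMP-2A takes part in chaperone-mediated autophagy, had 140, 153 and 155 FPKM in the libraries labelled Atg5 KO, against 130, 98.8 and 154 FPKM in those labelled Atg5 WT, with a log2 difference of 0.25. The log2 ratio of Lamp2 to Lamp1 FPKM was -2.06 ± 0.0664 in the libraries labelled Atg5 KO, against -1.76 ± 0.225 in those labelled Atg5 WT (SD, n = 3 each; exact two-sided permutation p = 0.1, the smallest possible). Lamp2 was added after its values were seen, so this p is a description only. In Atg5 WT replicates 1, 2 and 3 the ratio was -1.8469, -1.5015 and -1.9240. The ratios did not overlap between the groups, but the step from Atg5 WT replicate 3 to Atg5 KO replicate 1, at -2.0035, was small. Much of the difference in means thus came from Atg5 WT replicate 2, and the ratio was not tested without that library. Cd63, a tetraspanin gene and the most expressed of the role, had 735, 842 and 850 FPKM in the libraries labelled Atg5 KO, against 764, 448 and 945 FPKM in those labelled Atg5 WT. The groups overlapped, and its log2 difference of 0.23 became -0.07 without Atg5 WT replicate 2. Cln3, which overlaps Apobr on the other strand and is less certain for that, had 22.7, 25.6 and 27.0 FPKM in the libraries labelled Atg5 KO, against 21.0, 17.5 and 23.8 FPKM in those labelled Atg5 WT.

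Of the 8 proton pump members, 5 averaged higher and 3 lower in libraries labelled Atg5 KO, 0 passed the limma-trend test or had an unadjusted p under 0.05, and the groups overlapped for all 8. The pump has a V1 sector that hydrolyses ATP and a V0 sector in the membrane that moves protons. Its median log2 difference was 0.18, and it turned to -0.06 without Atg5 WT replicate 2 and to -0.10 after adjustment for the tumour-cell score. In V1, Atp6v1h had 28.0, 33.2 and 30.5 FPKM in the libraries labelled Atg5 KO, against 35.0, 26.9 and 36.2 FPKM in those labelled Atg5 WT. Its log2 difference was -0.09, and 0.003 under median-ratio scaling, and that of Atp6v1a, which encodes the catalytic A subunit, was -0.10. Both lay within the spread of the libraries labelled Atg5 WT. Atp6v1b2, which encodes the B subunit, had 102, 109 and 115 FPKM in the libraries labelled Atg5 KO, against 91.3, 61.3 and 113 FPKM in those labelled Atg5 WT.

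In V0, Atp6v0a1 had the lowest difference of all 42 members, -0.13 with an SE of 0.19. Its FPKM was 26.2, 32.6 and 26.6 in the libraries labelled Atg5 KO, against 31.4, 24.6 and 38.7 in those labelled Atg5 WT. The difference was 0.02 without Atg5 WT replicate 3, so no direction held. Atp6v0c, which encodes the ring subunit that carries protons, differed by 0.14. The accessory subunit gene Atp6ap1, the most expressed of this role, had 166, 187 and 181 FPKM in the libraries labelled Atg5 KO, against 160, 114 and 182 FPKM in those labelled Atg5 WT.

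The d subunit has a ubiquitous form, Atp6v0d1, and a form best known from osteoclasts and some macrophages, Atp6v0d2. Atp6v0d1 had 84.9, 105 and 101 FPKM in the libraries labelled Atg5 KO, against 88.4, 61.1 and 106 FPKM in those labelled Atg5 WT. Atp6v0d2 had 6.44, 12.5 and 7.44 FPKM in the libraries labelled Atg5 KO, against 6.94, 4.20 and 7.20 FPKM in those labelled Atg5 WT. The ubiquitous form was therefore the more abundant per length in every library, and the high value of Atp6v0d2 was that of Atg5 KO replicate 2 alone. The log2 ratio of Atp6v0d2 to Atp6v0d1 FPKM was -3.52 ± 0.386 in the libraries labelled Atg5 KO and -3.80 ± 0.116 in those labelled Atg5 WT (SD, n = 3 each; exact two-sided permutation p = 0.3). The same library was the highest of those labelled Atg5 KO for 7 of the 8 pump genes, whereas Atg5 KO replicate 3 was the highest for 27 of the other 34 members. Over all tested genes Atg5 KO replicates 1, 2 and 3 were the highest of these 3 libraries for 50.6%, 24.6% and 24.8%. Atg5 KO replicate 1 was the highest for 1 of those 34 members and for no pump gene. No test was made of this split.

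**Figure D5:**
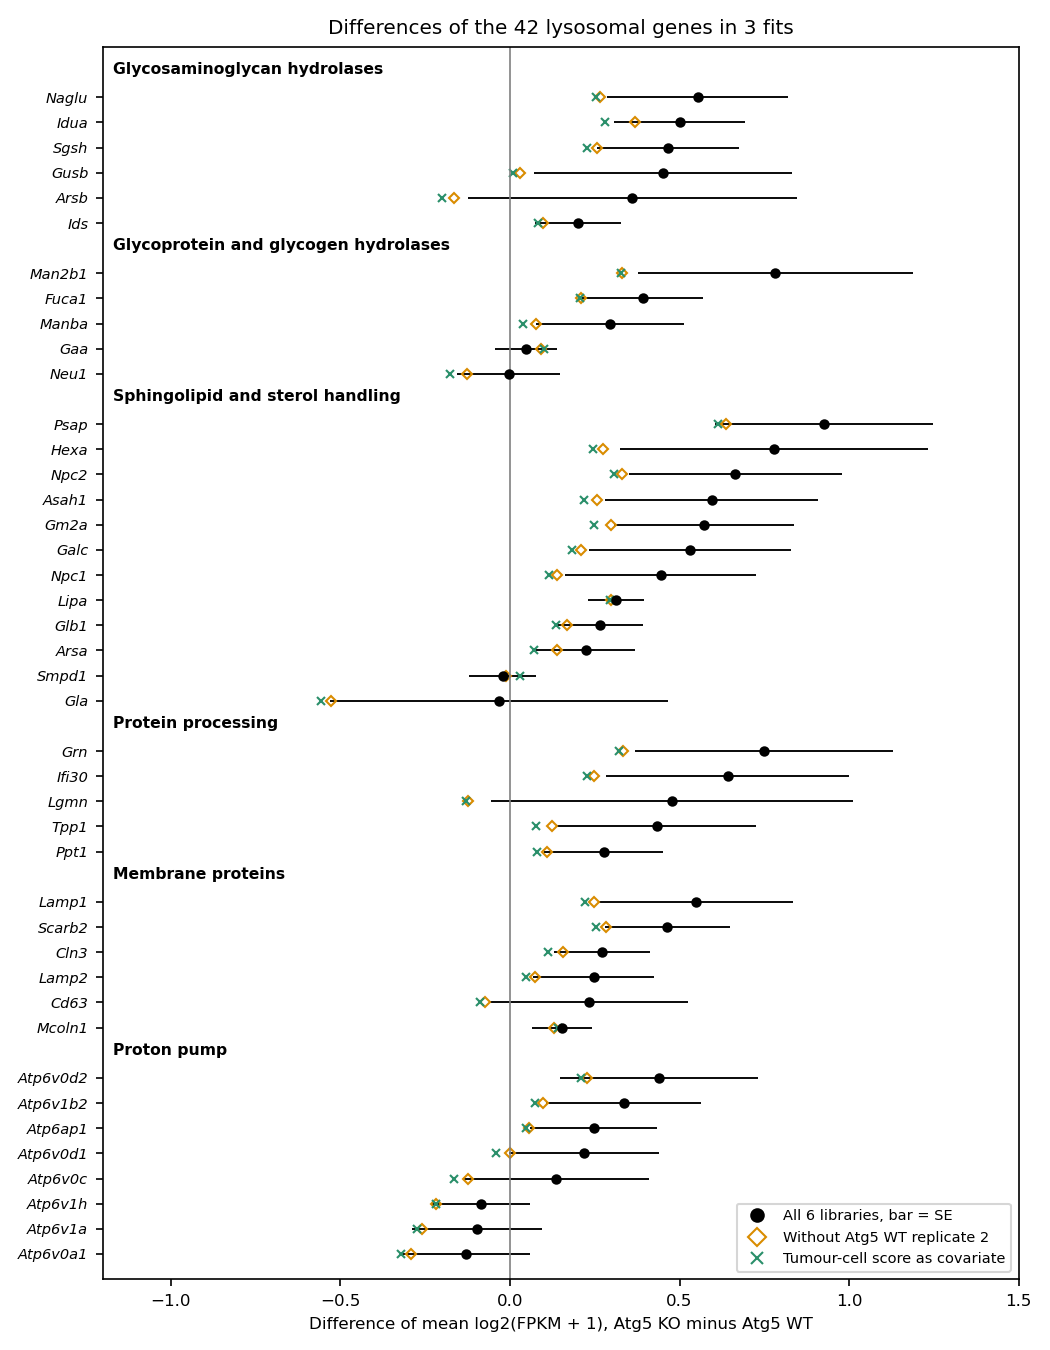
Log2 difference (KO-labelled minus WT-labelled libraries, pseudocount of 1 FPKM) for the 42 lysosomal genes by role; black points with bars are the estimate and SE from all 6 libraries, orange diamonds the estimate without Atg5 WT replicate 2, and green crosses the estimate after adjustment for the tumour-cell score. Most black points lie right of 0, and nearly all diamonds and crosses lie nearer to 0 or left of it, with Lipa almost unmoved and Psap at 0.64 and 0.61.

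The rest of the lysosome, given here by 72 further genes without cathepsins, gave 0 genes past the limma-trend test. Of 69 that passed the filter, 50 had a higher mean in the libraries labelled Atg5 KO, with a median log2 difference of 0.23, and 6 higher and 2 lower genes had an unadjusted p under 0.05, against 4.84% and 5.17% of all tested genes. The groups did not overlap for 15 higher genes and 4 lower ones, against 9.2% and 9.41% of all tested genes. The 26 other soluble enzymes had a median of 0.46, the 29 tested membrane and transport genes 0.17 and the 14 other pump subunits 0.04. Without Atg5 WT replicate 2 the median of all 69 was 0.10, that of the soluble enzymes 0.16, that of the membrane and transport genes 0.10 and that of the pump subunits -0.03. Among the soluble enzymes, Rnaset2a, a lysosomal ribonuclease gene, had 291, 243 and 285 FPKM in the libraries labelled Atg5 KO, against 209, 172 and 205 FPKM in those labelled Atg5 WT. It has a near-identical copy, Rnaset2b, so reads can be divided between them. The hyaluronidase gene Hyal1 went the other way, with 1.39, 1.57 and 1.07 FPKM in the libraries labelled Atg5 KO, against 2.14, 2.44 and 2.26 FPKM in those labelled Atg5 WT. The acid phosphatase gene Acp2 had 26.7, 25.8 and 31.1 FPKM in the libraries labelled Atg5 KO, against 18.6, 11.2 and 23.3 FPKM in those labelled Atg5 WT. The groups of these 3 genes did not overlap, and their log2 differences were 0.48, -0.49 and 0.68 in this order.

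Among transporters, the nucleoside carrier gene Slc29a3 had 32.6, 30.6 and 36.4 FPKM in the libraries labelled Atg5 KO, against 24.9, 20.7 and 27.9 FPKM in those labelled Atg5 WT. Slc11a1, which encodes the metal ion transporter NRAMP1 of phagosomes, had 132, 129 and 166 FPKM in the libraries labelled Atg5 KO, against 79.8, 36.1 and 111 FPKM in those labelled Atg5 WT. Both were separate between the groups, with log2 differences of 0.43 and 1.03, and Slc11a1 was at 0.58 without Atg5 WT replicate 2. Laptm4b was lower, at 8.76, 6.76 and 6.46 FPKM in the libraries labelled Atg5 KO, against 11.2, 13.3 and 8.62 FPKM in those labelled Atg5 WT, and its groups overlapped. Of the pump subunits, Tcirg1, the a3 form known from osteoclasts and macrophages, had 134, 128 and 159 FPKM in the libraries labelled Atg5 KO, against 99.8, 70.4 and 132 FPKM in those labelled Atg5 WT. Atp6v0e2 differed by 0.28 and Atp6v1e1 by -0.19. None of these passed the test over all genes.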

How the data were processed

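RNA from sorted macrophages was sequenced in 6 libraries; the NEBNext Ultra RNA kit was used, per the labels' protocols. The authors deposited FPKM values, and the submitters' processing notes name STAR, CASAVA and mm10; no source used here gives the counting program, strand setting or annotation. FPKM multiplied by the listed gene length gave whole reads for 100.0% of values (tolerance 0.01 read), so intervals from counting are narrow and the spread between mice limits the precision. Of 227 list entries, 225 matched a symbol and 2 a gene ID. The spans of 11 members overlap another gene, and for 5 that gene had over 5% of the member's reads (Idua, Glb1, Npc1, Ppt1, Cln3).

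A mean FPKM of 1 or more over the 6 libraries was required, and log2(FPKM + 1) was fitted with group as the only term in limma 3.58.1 (limma-trend) under R 4.3.3, two-sided. Differences are KO-labelled minus WT-labelled libraries and understate low genes. limma-voom with trimmed-mean scaling was run on the recovered reads as an alternative. The fits were run on simulated data only to check the size of the estimated differences. How many of the simulated differences were called is not given here. The members and lists were chosen with earlier results of these data known. Genes given per library were, by rule, up to 3 per role of smallest p, the most expressed, the one of lowest difference and both d subunit genes, with up to 3 per further lysosomal list; Lamp2 and Atp6v1h were added after their values were seen. A planned comparison of protein sequences was not made.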

Additional observations from a re-analysis of the deposited data

How the results depend on the processing

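No member passed the threshold under any alternative run, and the lowest adjusted p of any member was 0.128, in limma-trend without Atg5 WT replicate 3, where 24 members and 32.9% of tested genes had an unadjusted p under 0.05. The number of genes called was 1 in the main limma-trend fit and 0 with limma-voom, median-ratio scaling, no filter or the replicate number as a block, and it was 0 to 18 when 1 library was left out, the 18 being without Atg5 WT replicate 2. Members with separate groups numbered 3 under median-ratio scaling (Gaa, Lipa and Psap) and 11 to 29 with 1 library left out. The 29 were without Atg5 WT replicate 3, where 17.5% of tested genes were separate and higher. The share of tested genes is not given for median-ratio scaling or the other left-out libraries, so those counts alone do not set the members apart. Median-ratio scaling moved the share of tested genes with a higher mean to 48.2%, quantile normalization to 54.2% and limma-voom to 49.1%, against 37.2%; the members' median was then 0.44, 0.39 and 0.43. The members' median was 0.13 to 0.54 with 1 library left out. The median for glycoprotein and glycogen hydrolases was 0.41 with limma-voom, 0.38 with median-ratio scaling, 0.39 with quantile normalization, 0.10 after adjustment for the tumour-cell score and 0.0908 to 0.47 with 1 library left out. The glycosaminoglycan median was 0.16 with that adjustment and 0.18 to 0.69 with 1 library left out, and that of the other soluble enzymes 0.14 and 0.16 to 0.63.

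Signs turned for 9 of the lysosomal genes given per library, none of them called: Gla was 0.0345, 0.0554 and 0.0405 with limma-voom, median-ratio scaling and quantile normalization, and -0.53 to 0.33 with 1 library left out. Neu1 was 0.083, 0.0854 and 0.0409 with limma-voom, median-ratio scaling and quantile normalization, and -0.13 to 0.12 with 1 left out. With the tumour-cell score adjusted for, Atp6v0d1 was -0.0416, Cd63 -0.0875 and Lgmn -0.13, and with 1 left out they ran from -0.0005 to 0.39, from -0.0734 to 0.46 and from -0.12 to 0.92; Atp6v0a1 ran from -0.29 to 0.0248. Atp6v1h was 0.0081 with limma-voom and 0.003 with median-ratio scaling, and Atp6v1b1 and Atp6v1c2 were 0.3792 and 0.2497 with the tumour-cell score adjusted for. The cause was not tested. Same-numbered libraries did not deviate together (correlations over genes of 0.21, -0.38 and 0.59), so the numbers were not taken to pair mice; with the replicate block 0 genes and 0 members were called and the members' median was 0.35.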

Other observations

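A pair of pump subunit genes of the further lysosomal list, chosen after their values were seen, ran with the epithelial markers and not with the macrophage genes. Atp6v1b1, a B subunit form known from acid-secreting epithelia, had 73.5, 25.7 and 18.5 FPKM in the libraries labelled Atg5 KO, against 116, 244 and 13.9 FPKM in those labelled Atg5 WT. Atp6v1c2, a C subunit form known from epithelia, had 14.4, 5.07 and 2.88 FPKM in the libraries labelled Atg5 KO, against 17.5, 46.9 and 3.12 FPKM in those labelled Atg5 WT. The epithelial keratin gene Krt8 had 302, 105 and 49.0 FPKM in the libraries labelled Atg5 KO, against 474, 798 and 108 FPKM in those labelled Atg5 WT. All 3 genes were highest in Atg5 WT replicate 2, the library in which 40 of the 42 lysosomal genes were lowest. That library was above all 3 libraries labelled Atg5 KO for 57.8% of all tested genes, so a high value there does not single these genes out. Neither pump gene passed the limma-trend test over all genes (adjusted p = 0.61 and 0.589), and their log2 differences of -1.15 and -1.11 turned to 0.38 and 0.25 after adjustment for the tumour-cell score.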
